A study of Mus musculus with 24 samples.

Results

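Ion channel genes for potassium, sodium and calcium, and for the TRP cation channels, were followed in cultured mouse ovarian surface epithelial (mOSE) cells, which come from the thin epithelium that covers the ovary. The genes were chosen by symbol alone, from the Kcn, Scn, Cacna1, Cacna2d, Cacnb, Cacng, Trpc, Trpm and Trpv series, and no expression value entered the choice. The rule found 153 genes among 35687 to 35688 gene rows in each of 3 expression tables, and the symbols divide them into 15 families. RNA from 24 libraries, in 8 groups of 3, was measured by poly(A) RNA-seq. In the first experiment, the m1102 line was cultured attached, as a monolayer, or floating, as spheroids on low-attachment plastic, each untreated or with 10 ng/mL TGFB1. The spheroid cells received TGFB1 for 4 days before they were moved to low attachment, and the duration for monolayers is not given in the sources used here. In the second experiment, m1102 cells carried a lentivirus with Snail or its vector WPI alone. In the BRCA1 experiment, cells of the line mOSE_BRCA1_fl, from BRCA fl/fl mice, received an adenovirus with Cre (labelled BRCA1_ko) or with GFP (labelled BRCA1_wt), so both groups carry the floxed alleles and an adenovirus. All cells shared a medium with 4% FBS, EGF and an insulin, transferrin and selenium supplement, and each experiment used 1 named cell line.

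Voltage-gated channels open when the membrane potential changes, and each consists of a pore subunit with accessory subunits that set its surface level and gating. Potassium channels hold the membrane potential negative, calcium channels turn depolarization into a calcium signal, and most TRP channels pass sodium and calcium in response to receptors, lipids, temperature or calcium itself. Epithelial cells do not fire action potentials as neurons do, and their channels are known for roles in cell volume, ion transport, migration and proliferation.

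The members on which the results below turn most, and for which a start site was at hand, were Kcnn3 (a calcium-activated potassium channel), Trpc4 (a receptor-operated cation channel) and Cacna2d1 (an accessory calcium channel subunit). The 250 bases before each start are shown 5′ to 3′ on the coding strand, from RefSeq, build GRCm38.p6. They are shown because these genes moved with TGFB1 in spheroids, in the libraries labelled BRCA1_ko, and in 5 of the comparisons, respectively. Kcnn3 lies at chr3:89519914-89520163, Trpc4 at chr3:54155807-54156056 and Cacna2d1 at chr5:15934441-15934690, all on the plus strand. Capitals mark the letters of a motif that was searched on both strands.
Kcnn3: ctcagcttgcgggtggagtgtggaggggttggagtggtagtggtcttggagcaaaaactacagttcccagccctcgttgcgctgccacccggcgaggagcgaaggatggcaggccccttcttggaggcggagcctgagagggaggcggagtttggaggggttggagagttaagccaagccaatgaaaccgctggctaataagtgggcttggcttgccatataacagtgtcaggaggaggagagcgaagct
Trpc4: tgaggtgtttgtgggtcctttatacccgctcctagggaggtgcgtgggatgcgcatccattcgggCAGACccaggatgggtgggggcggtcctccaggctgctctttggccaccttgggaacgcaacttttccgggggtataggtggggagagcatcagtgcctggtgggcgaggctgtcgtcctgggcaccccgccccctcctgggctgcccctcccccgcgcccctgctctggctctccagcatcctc
Cacna2d1: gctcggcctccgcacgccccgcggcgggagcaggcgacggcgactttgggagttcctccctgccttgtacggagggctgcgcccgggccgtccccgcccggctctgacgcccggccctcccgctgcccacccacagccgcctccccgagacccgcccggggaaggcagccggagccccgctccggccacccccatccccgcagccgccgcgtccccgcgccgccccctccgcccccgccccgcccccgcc

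The motifs were the Snail E-box CAGGTG, the AP-1 site TGAGTCA and the SMAD half-site CAGAC, and they do not overlap in these 3 windows. Trpc4 holds 1 CAGAC, which starts at base 66, and the other two windows hold none of the 3 motifs. CAGAC occurred in 42.2% of all 32851 windows of this length and in 46.8% of the 156 windows of channel genes, which came from 116 of the 153 members. CAGGTG occurred in 17.2% of all windows and in 22.4% of channel windows, and TGAGTCA in 4.46% and 2.56%. The Cacna2d1 window is 82.4% G and C with 36 CpG dinucleotides, the Trpc4 window 66.4% with 12 and the Kcnn3 window 58.8% with 10, while the median over all windows was 52.4% and 6.

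Most of the 153 genes were at or near zero. Levels are given as the deposited scaled TPM, an estimate of transcript abundance corrected for length and scaled between libraries, so that levels of different genes can be compared within a table. A gene was tested where at least 3 libraries of its table reached 1, which the libraries of 1 group alone could meet. By that rule 36 members were tested among the monolayers and spheroids, 23 with Snail and 35 with BRCA1, which makes 51 in at least 1 table, 16 in all 3 and 102 in none. Across monolayers and spheroids, 102 members were below 1 in all 12 libraries, and 8 of these were listed at 0 throughout. Families differed in this respect. None of the 10 electrically silent potassium subunits (Kcnf, Kcng, Kcns and Kcnv) was tested in any table, and of the 15 inward rectifiers only Kcnj11 was, in the BRCA1 table. The TRPM genes tested were the same in each table, Trpm2, Trpm4, Trpm5 and Trpm7. Among the members that were not tested, the highest single value was 3.76 for Kcnmb2 in the monolayer and spheroid table and 3.46 for Kcnh1 in the BRCA1 table.

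Genes for accessory subunits and 1 TRP channel made up most of the channel RNA. In untreated monolayers Cacnb3, the beta subunit that carries calcium channel pores to the membrane, stood at 108, 117 and 119. Kcnab1, a cytosolic beta subunit of Shaker-type potassium channels, stood at 104, 113 and 104, and Trpm7, a magnesium- and calcium-permeable channel fused to a kinase, at 63.5, 67.9 and 65.0. These 3 genes held 30.8%, 28.8% and 17.6% of the summed channel level, and their libraries lay close together. The next gene, Kcnmb4, had a mean of 7.68. Calcium channel pore genes were far below their beta subunit, with the T-type genes Cacna1g at 9.75, 5.47 and 4.77 and Cacna1h at 5.28, 3.82 and 4.06. The same 3 genes led in the WPI vector cells, where Cacnb3 averaged 116, Kcnab1 101 and Trpm7 64.8, and in the libraries labelled BRCA1_wt, with 124, 97.2 and 46.0. The tables were scaled separately, so levels across them are set side by side and not tested.

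**Figure D1:**
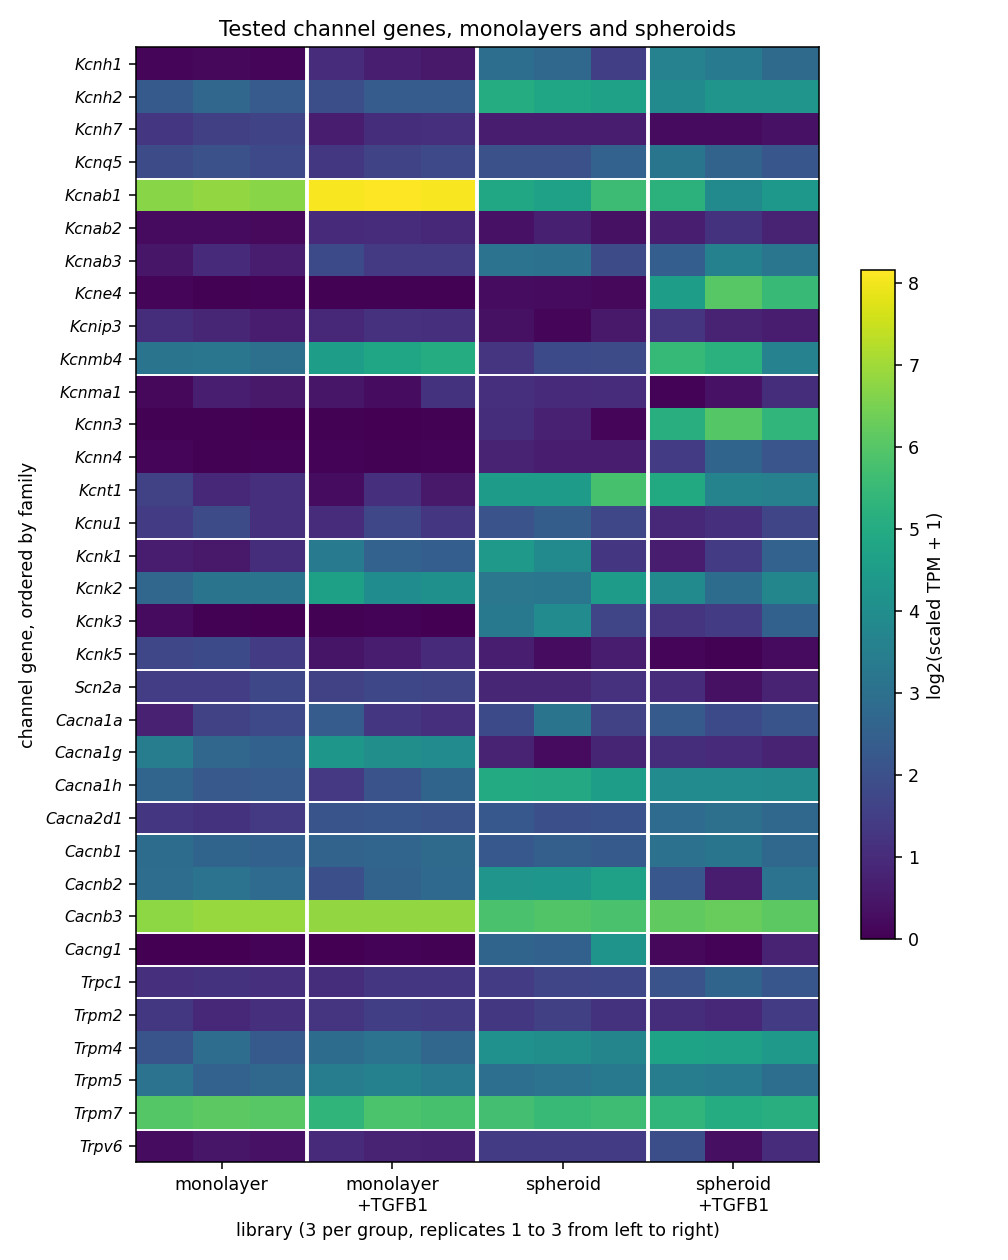
Heat map of log2(scaled TPM + 1) for 34 of the channel genes tested in the monolayer and spheroid table (1 line of the map per gene, ordered by family) in 12 libraries (columns, 3 per group). Kcnab1 and Cacnb3 are brightest in all 6 monolayers, while Kcnn3 and Kcne4 are bright only in the 3 spheroid libraries with TGFB1.

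The libraries were checked before the comparisons. Deposited values summed to between 955433 and 1166749 over monolayers and spheroids and between 983449 and 1021026 in the Snail experiment. Pairs of libraries of 1 group correlated at 0.965 to 0.994 across genes in these 2 tables, with the third untreated spheroid library (0.970 with each of the others) apart from the other two (0.991). All 6 monolayer libraries are titled as re-analyzed and no spheroid library is, so culture form and library origin cannot be told apart. Untreated monolayer libraries 1 and 2 refer back to 1 shared earlier sample in their labels, and their values differed. In the BRCA1 table, the libraries labelled BRCA1_wt 1 and 3 summed to 1217651 and 1810667 and correlated at 0.979, while library 2 summed to 796668 and correlated with them at 0.917 and 0.866. Snai1 stood at 9.81 to 13.7 with the WPI vector and 193 to 234 with the Snail construct. Brca1 did not separate the labels, at 4.27, 12.3 and 3.66 in the libraries labelled BRCA1_wt and 5.34, 11.1 and 4.09 in those labelled BRCA1_ko; library 2 was the highest of both groups, and a gene-level value cannot show the loss of a floxed exon. Ovarian surface and mesothelial markers were present in monolayers: Wt1 averaged 177 and Upk3b 276 in untreated m1102 monolayers, although Krt8 (0.189) and Krt19 (1.61) were low there. The labels do not say whether the 3 libraries of a group came from separate cultures, so p-values measure the spread between these libraries.

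Untreated spheroids and untreated monolayers differed in channel gene levels, with Kcnt1, Kcnh2 and Cacna1h among those higher in spheroids and Kcnab1, Cacnb3 and Cacna1g among those lower. Cacnb3, Trpm7 and Kcnab1 were the 3 highest channel genes in both groups. Of the 36 members tested, 14 rose, 8 fell and 14 did not pass the test (limma, Benjamini-Hochberg adjusted p under 0.05 over all 13509 genes tested). Over all genes 55.2% passed, 27.6% higher and 27.7% lower, beside 61.1% of members, a share near that background. The median log2 difference was 0.59 over the members tested and 0.01 over all genes. Log2 differences here and below are of scaled TPM + 1, which understates the change of genes at low levels. With TGFB1 in both cultures, 15 members were higher in spheroids and 7 lower, beside 25.3% and 26.5% of all genes (51.9% in both directions), and the median over members was 0.29. The 2 comparisons use separate libraries, and 17 members were called in both, 10 higher and 7 lower, with none in opposite directions. Over all 13509 genes 36.5% were called in both, beside 47.2% of members, with 2182 genes higher, 2556 lower and 191 in opposite directions.

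Among voltage-gated potassium pore genes, Kcnh2, which encodes the ERG channel of cardiac repolarization, stood at 3.94, 5.51 and 4.10 in untreated monolayers and 31.9, 27.5 and 24.2 in untreated spheroids. All spheroid libraries were above all monolayers, with a log2 difference of 2.39 ± 0.17 (SE), adjusted p = 1.26e-06. With TGFB1 its levels were 2.88, 4.20 and 4.13 in monolayers and 13.6, 17.9 and 18.2 in spheroids, a difference of 1.89 ± 0.17 (SE), adjusted p = 5.57e-06. Kcnh1, for the EAG channel, went from 0.0981, 0.126 and 0.102 to 6.68, 5.65 and 1.83 without TGFB1, and the third spheroid library was the lowest of its group yet above every monolayer (log2 difference 2.24 ± 0.34 (SE), adjusted p = 0.000227). Kcnh7, for a channel related to ERG, went the other way, from 1.42, 1.95 and 2.17 to 0.549, 0.582 and 0.588 (log2 difference -0.85 ± 0.17 (SE), adjusted p = 0.00167). The M-type channel gene Kcnq5 did not pass without TGFB1 (log2 difference 0.31 ± 0.25 (SE), adjusted p = 0.314) but did with it, at 1.48, 2.17 and 2.45 in monolayers and 8.08, 5.02 and 3.51 in spheroids (log2 difference 1.06 ± 0.25 (SE), adjusted p = 0.0043). Summed over its 30 members, the family of voltage-gated potassium pore genes went from 12.1 ± 1.82 (SD, n = 3) in untreated monolayers to 39.3 ± 5.63 in untreated spheroids, nearly all of it Kcnh2 and Kcnh1.

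The sodium-activated potassium channel gene Kcnt1 had the largest called difference of the members without TGFB1. Its level was 1.96, 0.930 and 1.17 in untreated monolayers and 21.6, 21.2 and 54.3 in untreated spheroids. The groups did not overlap, the third spheroid library was above the other two, and the log2 difference was 3.71 ± 0.43 (SE), adjusted p = 3.76e-05. With TGFB1 the values were 0.195, 1.16 and 0.465 and 29.9, 11.4 and 10.8 (log2 difference 3.41 ± 0.43 (SE), adjusted p = 7.05e-05). The 2-pore-domain genes, which make background potassium currents, divided. Kcnk3, for the acid-sensitive TASK1 channel, rose from 0.191, 0.0289 and 0 to 8.77, 14.3 and 2.28 without TGFB1 (log2 difference 2.88 ± 0.49 (SE), adjusted p = 0.000491). Kcnk1, for TWIK1, rose from 0.567, 0.460 and 1.10 to 19.8, 13.8 and 1.44 (log2 difference 2.43 ± 0.71 (SE), adjusted p = 0.0129). In both genes the third spheroid library was well below the other two, near the monolayers for Kcnk1. Leaving out 1 library ended the untreated calls for Kcnk1, Cacnb2, Scn2a, Trpc1 and Trpm7, and the calls with TGFB1 for Kcnk3 and Kcnk5. Kcnk5, for TASK2, fell from 2.36, 2.58 and 1.66 to 0.594, 0.209 and 0.537 (log2 difference -1.15 ± 0.19 (SE), adjusted p = 0.000474).

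Accessory potassium subunits were lower in spheroids where they had been highest in monolayers. Kcnab1 went from 104, 113 and 104 to 28, 24.5 and 47.4 without TGFB1, with no overlap and a log2 difference of -1.71 ± 0.30 (SE), adjusted p = 0.0007. With TGFB1 it went from 266, 283 and 268 to 36.8, 13.5 and 19.5, a difference of -3.61 ± 0.30 (SE), adjusted p = 3.61e-06. Kcnmb4, a beta subunit of the large-conductance calcium-activated channel, went from 7.87, 8.14 and 7.04 to 1.32, 2.54 and 2.69 (log2 difference -1.47 ± 0.39 (SE), adjusted p = 0.00787). With TGFB1 it was 22.4, 27.1 and 31.9 in monolayers against 43.2, 35.5 and 11.2 in spheroids, which overlapped and did not pass (log2 difference -0.04 ± 0.39 (SE), adjusted p = 0.936). Kcnab3, a minor member of the Kcnab1 group, rose from 0.416, 1.02 and 0.534 to 7.55, 7.18 and 2.61 (log2 difference 1.95 ± 0.36 (SE), adjusted p = 0.000899). The gene for the pore that Kcnmb4 accompanies, Kcnma1, stayed low in both cultures, at 0.127, 0.599 and 0.465 and 1.19, 0.967 and 1.05, and did not pass (adjusted p = 0.114).

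The T-type calcium channel genes went in opposite directions. Both encode low-voltage-activated pores that open near the resting potential. Cacna1g stood at 9.75, 5.47 and 4.77 in untreated monolayers and 0.713, 0.171 and 0.796 in untreated spheroids (log2 difference -2.27 ± 0.24 (SE), adjusted p = 2.03e-05). Cacna1h stood at 5.28, 3.82 and 4.06 and 30.6, 29.5 and 22.5 (log2 difference 2.40 ± 0.26 (SE), adjusted p = 2.15e-05). Neither gene overlapped between cultures, and the higher of the pair was Cacna1g in 3 of 3 untreated monolayers and Cacna1h in 3 of 3 untreated spheroids. The same held with TGFB1, where Cacna1g was 18.9, 15.3 and 14.3 in monolayers against 1.10, 0.972 and 0.725 in spheroids (log2 difference -3.15 ± 0.24 (SE)) and Cacna1h 1.55, 3.29 and 5.13 against 14.4, 14.1 and 14.0 (log2 difference 1.90 ± 0.26 (SE)). Cacna1a, for the P/Q-type pore, overlapped between cultures and did not pass (adjusted p = 0.153 untreated and 0.357 with TGFB1).

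Calcium channel accessory genes changed level in both directions as well. Cacnb3 fell from 108, 117 and 119 to 54.6, 60.6 and 55.4 (log2 difference -1.0 ± 0.07 (SE), adjusted p = 1.1e-06), while Cacnb2 rose from 6.46, 7.60 and 6.25 to 17.9, 18.3 and 24.4 (log2 difference 1.44 ± 0.48 (SE), adjusted p = 0.0254). Cacnb3 remained the highest channel gene in both spheroid groups. Cacng1, the gamma subunit known from skeletal muscle, was at 0, 0 and 0.0517 in untreated monolayers and 5.14, 4.79 and 17.5 in untreated spheroids, with the third spheroid library the highest (log2 difference 3.10 ± 0.38 (SE), adjusted p = 5.38e-05). Cacna2d1 was 1.46, 1.27 and 1.63 and 3.72, 2.97 and 3.18, a smaller change with a tight spread (log2 difference 0.80 ± 0.12 (SE), adjusted p = 0.000239).

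The sodium channel pore gene Scn2a fell from 1.77, 1.80 and 2.41 to 0.846, 0.822 and 1.26 (log2 difference -0.60 ± 0.19 (SE), adjusted p = 0.0186). Trpm4, a calcium-activated channel for monovalent cations, rose from 3.38, 6.53 and 3.91 to 16.5, 15.2 and 12.1 (log2 difference 1.51 ± 0.20 (SE), adjusted p = 0.000107), and with TGFB1 from 6.42, 7.67 and 5.44 to 25.5, 24.2 and 19.8 (log2 difference 1.69 ± 0.20 (SE)). Trpm7 fell from 63.5, 67.9 and 65.0 to 51.5, 44.8 and 48.2 (log2 difference -0.44 ± 0.13 (SE), adjusted p = 0.0143), and with TGFB1, where it also passed, its groups overlapped at 39.4, 56.8 and 54.0 and 40.0, 32.4 and 34.3. The receptor-operated Trpc1 rose by 0.51 on the log2 scale without TGFB1 and by 1.08 with it, and the calcium-selective Trpv6 by 1.06 without TGFB1 (adjusted p = 0.0655 for Trpv6 without a filter on low values). Trpm2 and Trpm5 did not pass in either spheroid comparison.

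Cell type markers moved with culture form. Of 14 tested ovarian surface and mesothelial markers 12 were lower and 1 higher in untreated spheroids, and their summed level was 2471 to 2620 in untreated monolayers and 338 to 553 in untreated spheroids. Smooth muscle markers summed to 2418 to 3168 and to 17.5 to 73.9. Cardiac and skeletal muscle markers summed to 1.31 to 1.87 in untreated monolayers and 74.1 to 132 in untreated spheroids, and 2 of 7 were tested, both higher (Tnnt2 and Myh6), while Actc1 was listed at 0 in both groups and Ckm, Acta1 and Ttn averaged below 1. Granulosa and theca markers summed to 126 to 131 and to 209 to 218, and 3 of 4 tested were higher in untreated spheroids (Inha, Nr5a1 and Foxl2), while Fshr was listed at 0 in both groups and Cyp19a1 was below 1. Oocyte markers summed to 10.2 to 23.8 and to 1.59 to 2.51, with Ddx4 lower and Gdf9 higher. Their part in the channel differences was not tested. In bulk RNA, fewer cells of a type and less RNA per cell cannot be told apart. The authors' deposited table listed 21 of the 22 members called without TGFB1, all with the same sign and a q-value under 0.05. That q-value is 1 per gene, shared by the spheroid, TGFB1 and interaction coefficients, so it does not test culture alone. It was under 0.05 for 47 of the 55 members listed.

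**Figure D2:**
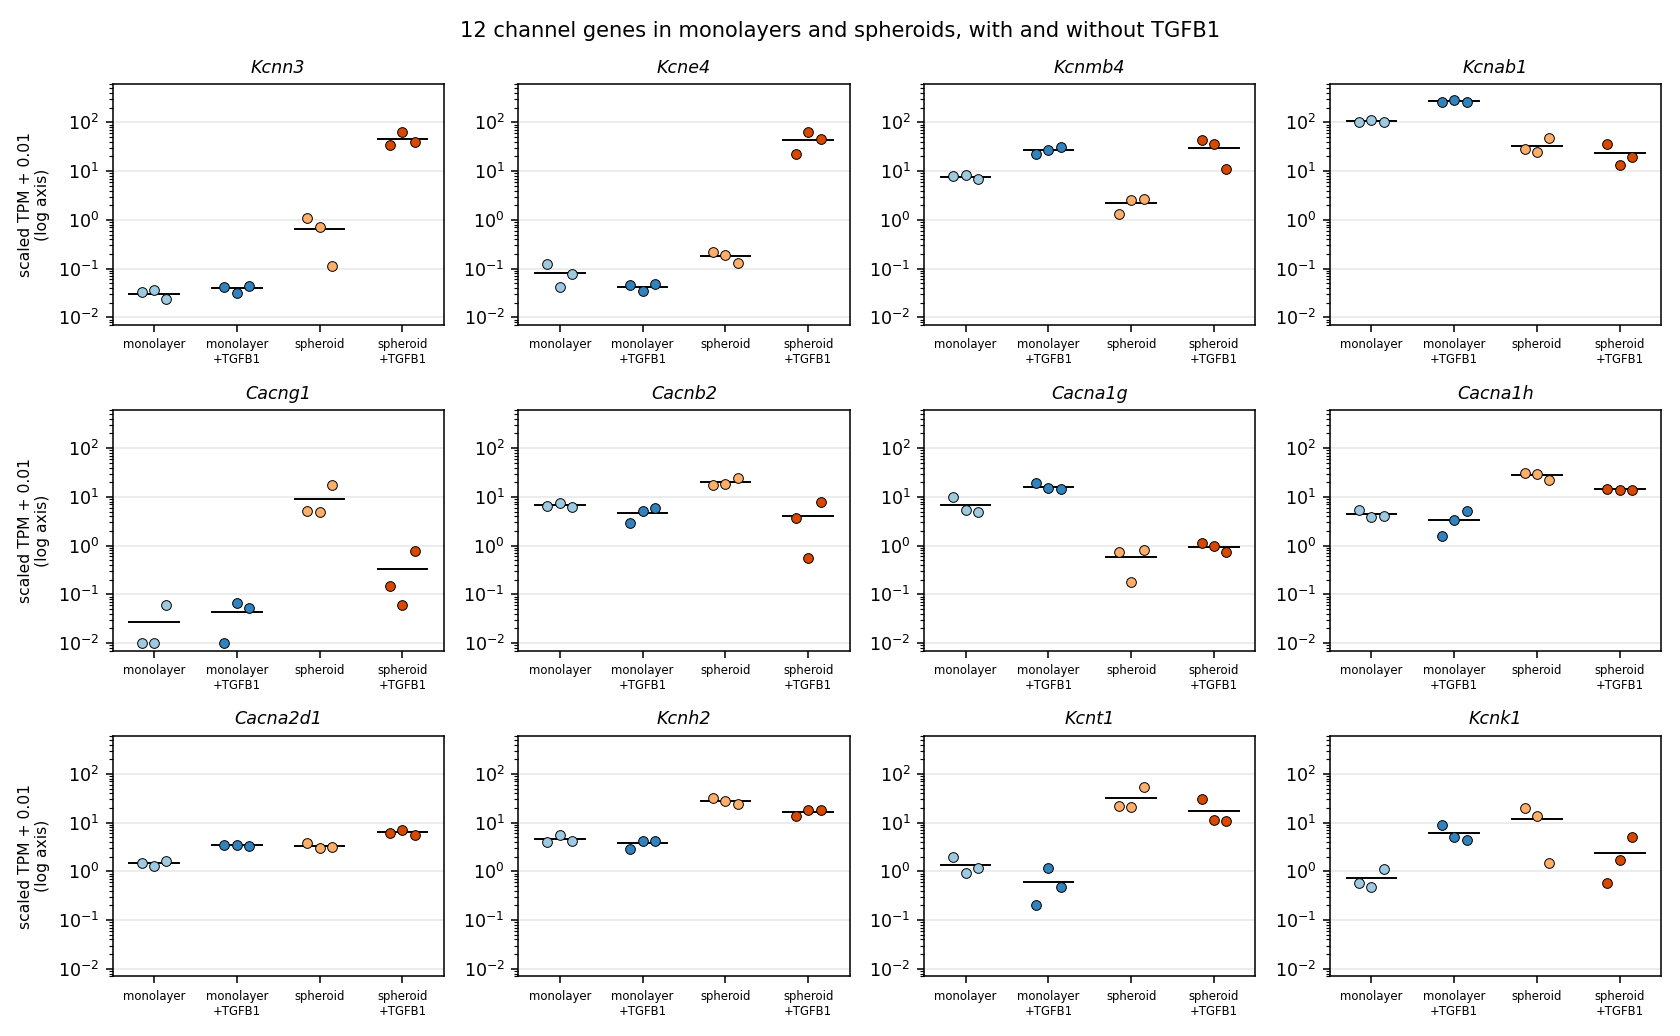
Scaled TPM of 12 channel genes in the 4 groups of the monolayer and spheroid table, on a log axis after adding 0.01; points are single libraries in order of replicate number and lines are group means. Kcnn3 spans 34.5 to 63.3 and Kcne4 22.1 to 63.9 in the 3 spheroid libraries with TGFB1, and neither exceeds 1.10 in the other 9, while Cacna1g and Cacna1h exchange places between monolayers and spheroids.

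With TGFB1 in monolayers, 5 of the 9 channel genes called were accessory or background potassium subunits. Of 36 members 7 rose and 2 fell, beside 16.9% of all genes called (9.12% higher and 7.79% lower). The median log2 difference was 0.10 over members and 0.01 over all genes. Kcnab1, already among the highest, went from 104, 113 and 104 to 266, 283 and 268, with tight and separate groups and a log2 difference of 1.34 ± 0.30 (SE), adjusted p = 0.0132. Its group mean of 273 was 48.0% of the summed channel level, and that sum went from 372 ± 13.1 (SD, n = 3) to 568 ± 17.1. Kcnmb4 rose from 7.87, 8.14 and 7.04 to 22.4, 27.1 and 31.9 (log2 difference 1.68 ± 0.39 (SE), adjusted p = 0.0146). Kcnab2, a close relative of Kcnab1 at a far lower level, rose from 0.176, 0.172 and 0.164 to 1.01, 1.04 and 0.897 (log2 difference 0.76 ± 0.17 (SE), adjusted p = 0.0126).

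The mechanosensitive background channel gene Kcnk2 (TREK1) stood at 5.48, 7.84 and 7.86 untreated and 23.9, 14.7 and 15.9 with TGFB1. The first TGFB1 library was the highest, the groups did not overlap, and the log2 difference was 1.23 ± 0.36 (SE), adjusted p = 0.0385. Kcnk5 fell from 2.36, 2.58 and 1.66 to 0.380, 0.561 and 0.985 (log2 difference -0.97 ± 0.19 (SE), adjusted p = 0.00683), and Kcnh7 fell by 0.58 on the log2 scale (adjusted p = 0.0417). Kcnk1 was higher in 3 of 3 libraries, at 8.95, 4.95 and 4.46 against 0.567, 0.460 and 1.10, yet did not pass (log2 difference 2.02 ± 0.71 (SE), adjusted p = 0.0753).

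Of the calcium channel genes Cacna1g and Cacna2d1 rose. Cacna1g went from 9.75, 5.47 and 4.77 to 18.9, 15.3 and 14.3, so that every TGFB1 library lay above every untreated one (log2 difference 1.21 ± 0.24 (SE), adjusted p = 0.00709). Cacna2d1 went from 1.46, 1.27 and 1.63 to 3.38, 3.49 and 3.28 (log2 difference 0.84 ± 0.12 (SE), adjusted p = 0.00141). The calcium-activated TRP gene Trpm5, known from taste cells, went from 7.53, 4.96 and 5.54 to 9.76, 10.9 and 9.47 (log2 difference 0.67 ± 0.16 (SE), adjusted p = 0.0185). Cacnb3 differed by less than its SE, at 112, 112 and 114 with TGFB1 (log2 difference -0.03 ± 0.07 (SE)).

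Among markers in these monolayers, 5 of 14 tested ovarian surface and mesothelial genes were lower with TGFB1 and 1 of 5 smooth muscle genes, Cnn1, was higher. The muscle marker Tnnt2 was higher too (4.28 against 0.976). Their part in the channel changes was not tested. The count of 9 called members dropped to 5 without the third untreated monolayer library. Calls for Kcnh7, Kcnk2, Kcnmb4 and Trpm5 were lost when 1 library was left out, that for Kcnab1 without a filter on low values (adjusted p = 0.0715) and that for Cacna1g with a pseudocount of 0.1 (adjusted p = 0.0551). The authors' deposited table gave all 9 the same sign with a q-value under 0.05. That q-value is 1 per gene, shared by all coefficients of the authors' model, so it does not test TGFB1 in monolayers alone.

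Spheroids of cells pretreated with TGFB1 held potassium channel genes that were near zero in untreated spheroids. Of 36 members 10 rose and 6 fell, beside 35.6% of all genes (18.8% higher and 16.8% lower). The median log2 difference was -0.10 over members and 0.00 over all genes. Kcnn3, for the small-conductance calcium-activated channel SK3, was 1.10, 0.696 and 0.101 in untreated spheroids and 34.5, 63.3 and 39.9 with TGFB1. Every TGFB1 library was far above every untreated one, and the log2 difference was 4.85 ± 0.25 (SE), adjusted p = 4.02e-07. Kcne4, a single-pass subunit that inhibits several voltage-gated potassium channels, was 0.206, 0.177 and 0.121 and 22.1, 63.9 and 45.3 (log2 difference 5.14 ± 0.29 (SE), adjusted p = 6.68e-07). In both monolayer groups Kcnn3 reached at most 0.0343 and Kcne4 at most 0.113. With TGFB1 these genes ranked next after Cacnb3 among the channel genes of spheroids, with 10.7% and 10.2% of the summed channel level.

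Of the 5 calcium- and sodium-activated potassium members tested, 2 rose (Kcnn3 and Kcnn4), 1 fell and 2 did not pass, and the accessory gene Kcnmb4 rose. Kcnmb4 went from 1.32, 2.54 and 2.69 to 43.2, 35.5 and 11.2, with the third TGFB1 library lowest but above all untreated ones (log2 difference 3.11 ± 0.39 (SE), adjusted p = 0.000228). Kcnn4, for the intermediate-conductance channel of epithelia and lymphocytes, went from 0.767, 0.588 and 0.539 to 1.67, 5.14 and 3.40 (log2 difference 1.35 ± 0.25 (SE), adjusted p = 0.00201). Kcnu1, the sperm-expressed relative of Kcnma1, fell from 3.22, 4.29 and 2.33 to 0.904, 1.13 and 2.28 (log2 difference -0.83 ± 0.28 (SE), adjusted p = 0.0419). Kcnt1 overlapped between groups, at 29.9, 11.4 and 10.8 with TGFB1, and did not pass (adjusted p = 0.139). Summed over the 8 calcium- and sodium-activated members, the level was 38.6 ± 17.5 (SD, n = 3) in untreated spheroids and 69.1 ± 12.1 with TGFB1, beside 4.05 ± 0.765 and 3.26 ± 1.03 in the monolayers. Kcnn3 alone averaged 45.9 in spheroids with TGFB1.

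Several genes that were high in untreated spheroids were lower with TGFB1. Cacng1 went from 5.14, 4.79 and 17.5 to 0.139, 0.0511 and 0.774 (log2 difference -2.76 ± 0.38 (SE), adjusted p = 0.000393), and all 3 TGFB1 libraries were below 1. Cacnb2 went from 17.9, 18.3 and 24.4 to 3.64, 0.535 and 7.66 (log2 difference -2.41 ± 0.48 (SE), adjusted p = 0.00317), the second TGFB1 library being the lowest. Cacna1h went from 30.6, 29.5 and 22.5 to 14.4, 14.1 and 14.0 (log2 difference -0.90 ± 0.26 (SE), adjusted p = 0.0198), and Kcnh2 from 31.9, 27.5 and 24.2 to 13.6, 17.9 and 18.2 (log2 difference -0.72 ± 0.17 (SE), adjusted p = 0.00759). Both stayed above their level in TGFB1-treated monolayers. Trpm7 fell by 0.43 on the log2 scale (adjusted p = 0.0244).

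Calcium channel and TRP genes were among the remaining risers. Cacna2d1 went from 3.72, 2.97 and 3.18 to 6.2, 7.03 and 5.67 (log2 difference 0.77 ± 0.12 (SE), adjusted p = 0.000911), Cacnb1 from 3.71, 4.49 and 3.98 to 7.30, 7.92 and 5.73 (log2 difference 0.65 ± 0.14 (SE), adjusted p = 0.00453), and Cacnb3 from 54.6, 60.6 and 55.4 to 71.1, 75.6 and 67.2 (log2 difference 0.32 ± 0.07 (SE), adjusted p = 0.00497). The Cacnb3 rise shrank to 0.14, with adjusted p = 0.15, when libraries were scaled to equal sums. Trpc1 went from 1.76, 2.24 and 2.38 to 3.28, 5.20 and 3.51 (log2 difference 0.66 ± 0.16 (SE), adjusted p = 0.0099) and Trpm4 from 16.5, 15.2 and 12.1 to 25.5, 24.2 and 19.8 (log2 difference 0.63 ± 0.20 (SE), adjusted p = 0.0329). Within each of these genes the groups did not overlap, and with only the 6 libraries compared Trpc1 had adjusted p = 0.0587.

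Marker genes moved here too. With TGFB1, 9 of 14 tested ovarian surface and mesothelial markers were lower in spheroids, 4 of 5 smooth muscle markers were higher, and the endothelial cadherin Cdh5 averaged 36.0 against 1.84, while Kdr, Tie1 and Tek averaged below 1 in both groups. The summed smooth muscle markers were 169 to 230 with TGFB1 and 17.5 to 73.9 without. Tnnt2 averaged 383 against 94.6. Granulosa and theca markers summed to 209 to 218 without TGFB1 and 101 to 131 with it, and 3 of 4 tested were lower (log2 differences of -2.40 for Inhbb, -1.96 for Inha and -0.79 for Nr5a1). Their part in the channel changes was not tested. Calls for Cacna1h, Kcnu1, Trpm4 and Trpm7 were lost when 1 library was left out, and scaling to equal sums, which moved the median of all genes to -0.16, gave 8 members higher and 7 lower.

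Whether the TGFB1 difference was unlike in the 2 cultures was tested with the interaction term of the same fit. Spheroid cells received TGFB1 for 4 days before low attachment, and the monolayer duration is not given. Culture form and TGFB1 schedule therefore cannot be told apart in this term. Of 36 members 9 passed, 6 with a more positive and 3 with a more negative TGFB1 effect in spheroids, beside 15.8% of all genes (8.72% and 7.11%). Scaling to equal sums, which moved the median of all genes to -0.21, gave 4 and 4, and median-ratio scaling 5 and 3. Kcne4 (interaction 5.19 ± 0.41 (SE), adjusted p = 2.51e-05) and Kcnn3 (4.83 ± 0.36 (SE), adjusted p = 1.57e-05) had the most positive values, and with TGFB1 their monolayer differences were -0.05 and 0.01. Cacng1 (-2.78 ± 0.54 (SE), adjusted p = 0.00626) fell with TGFB1 in spheroids and was near 0 in both monolayer groups. Kcne4 reached 1 only in spheroids with TGFB1, and Kcnn3 only there and in 1 untreated spheroid library. Cacng1 reached 1 only in untreated spheroids. Each of these genes was therefore tested through the group where it was high. Kcnab1 rose with TGFB1 in monolayers and had a difference of -0.56 in spheroids, which did not pass (interaction -1.90 ± 0.43 (SE), adjusted p = 0.0138, and adjusted p = 0.0684 without a filter on low values). Kcnmb4 went up in both cultures, and its interaction did not pass (1.43 ± 0.55 (SE), adjusted p = 0.105). Cacna2d1 rose by 0.84 in monolayers and 0.77 in spheroids, with an interaction of -0.07 ± 0.17 (SE).

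The interaction values of Kcnk1 (-3.66 ± 1.0 (SE), adjusted p = 0.0314), Kcnn4 (1.38 ± 0.35 (SE), adjusted p = 0.0232), Cacnb1 (0.66 ± 0.20 (SE), adjusted p = 0.0453) and Cacnb3 (0.35 ± 0.10 (SE), adjusted p = 0.0358) also passed, but each was lost when 1 library was left out. The count of 9 was 4 without the third untreated monolayer or the second TGFB1 monolayer. It was 5 without the second untreated monolayer, TGFB1 monolayer 1 or 3, untreated spheroid library 1 or 2 or the second TGFB1 spheroid library. Kcne4, Kcnn3 and Cacng1 were called under every alternative in which they were fitted, and the filter of a mean of 5 left Cacng1 out of the fit.

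**Figure D3:**
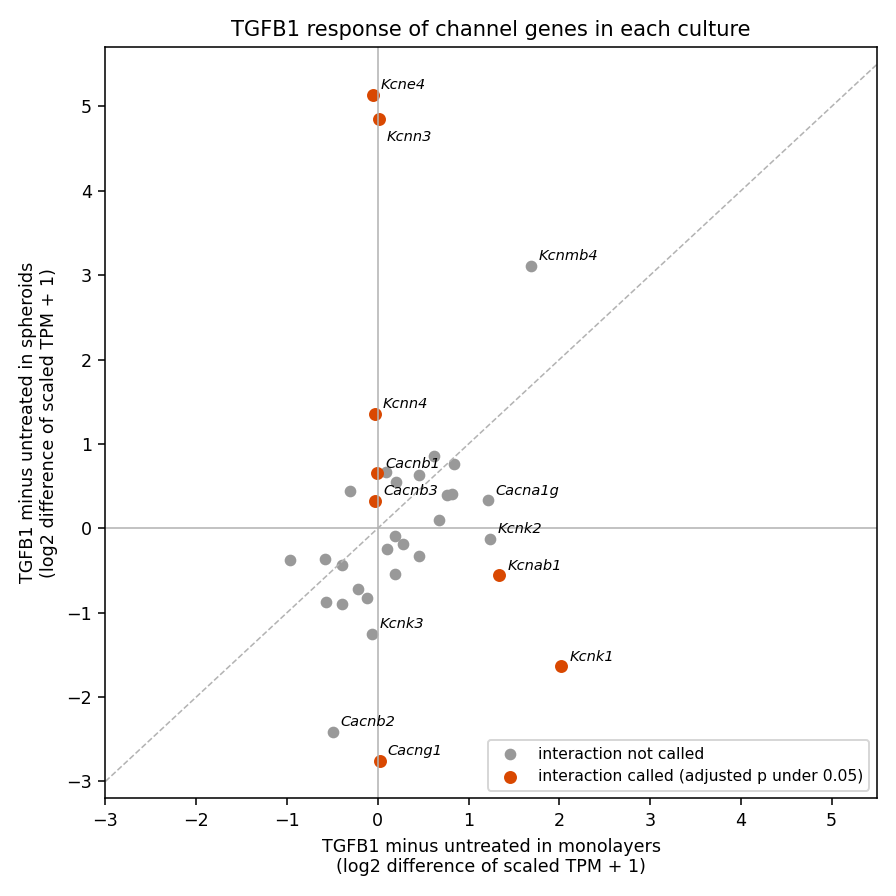
Log2 difference of scaled TPM + 1 between TGFB1 and untreated cells for 34 of the tested channel genes, in monolayers on the horizontal axis and in spheroids on the vertical axis; the dashed line marks equal values and orange points are genes whose interaction passed. Kcne4 and Kcnn3 lie near 0 in monolayers and near the top of the spheroid axis, while Cacng1 lies near 0 in monolayers and lowest in spheroids.

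Related lists gave the surroundings of these genes in spheroids. Of 15 tested genes of store-operated entry and of the endoplasmic reticulum, 3 rose and 6 fell in untreated spheroids, beside 55.2% of all genes called. The IP3 receptor genes Itpr2 (log2 difference 1.72 ± 0.26 (SE), adjusted p = 0.000253) and Itpr1 (-1.50 ± 0.19 (SE), adjusted p = 7.95e-05) went in opposite directions, and the calcium sensor Stim2 rose (1.23). With TGFB1 in spheroids 8 of the 15 rose and 2 fell, beside 35.6% of all genes, with Ryr1, a calcium release channel, at 1.80 ± 0.27 (SE), adjusted p = 0.000615. Of 16 tested pumps and exchangers 7 rose and 2 fell in untreated spheroids, near the same 55.2%. The sodium pump regulator Fxyd5 stood at 4.42, 4.49 and 5.72 in untreated monolayers and 268, 241 and 332 in untreated spheroids (5.57 ± 0.25 (SE), adjusted p = 4.66e-08), and the pump subunit Atp1b2 rose by 3.74. In monolayers with TGFB1, 3 pumps and exchangers rose and 4 fell, beside 16.9% of all genes.

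Of 20 tested other cation channels 9 rose and 6 fell in untreated spheroids, beside 55.2% of all genes called, among them the mechanosensitive channel Piezo1 (-2.14 ± 0.17 (SE), adjusted p = 2.46e-06) and the pacemaker channel Hcn2 (-2.29 ± 0.19 (SE), adjusted p = 3.2e-06), which fell. Piezo2, the second gene of the Piezo pair, stood at 0.426, 0.494 and 0.515 and 27.9, 15.7 and 16.2 in monolayers without and with TGFB1, and at 2.93, 2.35 and 0.903 and 167, 137 and 64.0 in spheroids. It rose with TGFB1 in both (log2 difference 3.78 in monolayers and 5.29 in spheroids). Of 9 tested channel partners, 3 rose and 2 fell with TGFB1 in spheroids, beside 35.6% of all genes. Stac, an adaptor of calcium channels, was listed at 0 in all 3 untreated libraries and stood at 7.45, 42.4 and 24.7 with TGFB1 (adjusted p = 5.51e-05), and no fold is given against 0. Dpp6, a partner of A-type potassium channels, rose with TGFB1 in monolayers (2.08) and fell between monolayer and spheroid (-2.56 untreated).

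The Snail construct changed 2 channel genes. Of 23 members tested 2 rose and none fell, beside 1.72% of all 12240 genes tested (0.572% higher and 1.14% lower). The median log2 difference was 0.08 over members and 0.01 over all genes, and 5 members had an unadjusted p under 0.05. Cacna1g stood at 7.14, 5.04 and 6.54 with the WPI vector and 17.8, 16.1 and 15.7 with Snail, with every Snail library above every vector library (log2 difference 1.28 ± 0.12 (SE), adjusted p = 0.00659). This call held when any 1 library was left out, while without a filter on low values, which tests every gene of the table, the adjusted p was 0.117 for Cacna1g and neither member passed.

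Kcnab1, Kcnip3 and Trpc1 had higher means with Snail but did not pass. Of the 23 members tested, 13 had a log2 difference above 0 and 10 below. Kcnab1 was 91.6, 104 and 107 with the vector and 127, 125 and 116 with Snail (log2 difference 0.28 ± 0.07 (SE), adjusted p = 0.114). Kcnip3, a calcium-binding partner of A-type channels, was 1.02, 1.22 and 1.27 and 2.33, 1.89 and 1.79 (log2 difference 0.47 ± 0.14 (SE), adjusted p = 0.185), and Trpc1 2.84, 2.09 and 2.04 and 3.89, 3.09 and 3.13 (log2 difference 0.40 ± 0.15 (SE), adjusted p = 0.255). Cacnb3 and Trpm7 differed by no more than about their SE. Cacnb3 was 114, 115 and 119 and 108, 117 and 113 (log2 difference -0.04 ± 0.05 (SE)), and Trpm7 68.9, 57.8 and 67.6 and 71.0, 69.5 and 63.9 (log2 difference 0.08 ± 0.08 (SE)). Kcnn3 averaged 0 and 0.00371, and Kcne4 0.00967 and 0, below the level for a test.

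Of the related lists, none of 13 tested store-operated and endoplasmic reticulum genes and none of 6 tested channel partners passed in either direction, beside 1.72% of all genes called. Of 18 other cation channels the lysosomal channel Tpcn1 alone fell (-0.50 ± 0.06 (SE), adjusted p = 0.0102), and of 15 pumps and exchangers 1 fell. Among markers, 1 of 14 tested ovarian surface and mesothelial genes was higher and 2 lower, and none of 4 tested smooth muscle genes passed. In the authors' deposited table both called members had the same sign and a q-value under 0.05.

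The libraries labelled BRCA1_ko differed from those labelled BRCA1_wt mostly by higher channel levels. Of 35 members tested 15 rose and 2 fell, beside 14.3% of all 12775 genes tested (9.04% higher and 5.27% lower). The median log2 difference was 0.89 over members and 0.17 over all genes. Related lists also had medians above that of all genes, at 0.92 for store-operated and endoplasmic reticulum genes and 0.75 for chloride channels. Other cation channels had 0.71, pumps and exchangers 0.53 and channel partners 0.30. Under scaling to equal sums the median over all genes was 0.63 and the split of members 12 to 1, and under median-ratio scaling -0.02 and 12 to 3. Trpc4, whose channel opens after receptor-driven lipid signalling, stood at 0.266, 0.475 and 0.112 in the libraries labelled BRCA1_wt and 9.17, 11.7 and 5.84 in those labelled BRCA1_ko (log2 difference 2.91 ± 0.29 (SE), adjusted p = 0.00269). The sets of 3 were far apart, and Trpc4 reached 1 only with the label BRCA1_ko, so it was tested through that group.

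Potassium pore genes were the most numerous risers, with 5 of 7 tested voltage-gated members, 3 of 4 tested 2-pore-domain members and the single tested inward rectifier. Some of these, among them Kcnj11 and Kcna1, reached 1 only with the label BRCA1_ko and were tested through that group. The filter thus favours risers in these counts, and they are not a result about the families. Kcnj11, the pore of the ATP-sensitive channel, was listed at 0 in all 3 libraries labelled BRCA1_wt and at 2.58, 2.04 and 2.07 in those labelled BRCA1_ko (adjusted p = 0.00294), and no fold is given against 0. Its partner gene Abcc8, the sulfonylurea receptor, stood at 0, 0.0299 and 0 and 1.2, 0.930 and 1.67. Kcnk1 went from 30.3, 35.7 and 22.0 to 97.0, 115 and 78.8, which made it the second highest channel gene of the group (log2 difference 1.70 ± 0.26 (SE), adjusted p = 0.0102). Kcnh2 went from 12, 23.6 and 10.9 to 47.5, 33.8 and 39.2 (log2 difference 1.39 ± 0.33 (SE), adjusted p = 0.0385) and Kcnk5 from 8.83, 13.6 and 5.68 to 26.2, 28.1 and 24.4 (log2 difference 1.46 ± 0.32 (SE), adjusted p = 0.0318). In both the second library labelled BRCA1_wt was the highest of its group. Against library 2 of that group alone, a single library that gives no spread of its own, the log2 difference was 0.73 for Kcnh2 and 0.89 for Kcnk5.

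A further 5 potassium genes passed at lower levels. The Shaker gene Kcna1 went from 0.416, 0.679 and 0.354 to 2.35, 3.25 and 2.31 (log2 difference 1.29 ± 0.21 (SE), adjusted p = 0.012), and the A-type gene Kcnd1 from 0.730, 2.13 and 0.744 to 3.48, 3.93 and 3.29 (log2 difference 1.11 ± 0.29 (SE), adjusted p = 0.0461). The Kcnd1 difference was 0.54 against library 2 labelled BRCA1_wt alone. Kcnu1, Kcnq5 and the arachidonic acid-gated Kcnk4 rose by 1.04, 0.90 and 0.89 on the log2 scale. Kcnab1 overlapped between groups, at 72.3, 170.5 and 48.8 and 175, 130.0 and 188, with its second BRCA1_wt library above the other two, and did not pass (adjusted p = 0.155).

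Calcium and sodium channel genes went both ways. Cacna1g rose from 1.26, 4.13 and 2.38 to 14.1, 11.2 and 17.9 (log2 difference 2.16 ± 0.36 (SE), adjusted p = 0.0129), and Cacna1h from 2.09, 1.81 and 3.22 to 9.04, 8.93 and 8.95 (log2 difference 1.59 ± 0.24 (SE), adjusted p = 0.0102). Cacna2d1 fell from 2.19, 1.97 and 2.33 to 0.107, 0.0335 and 0.0276 (log2 difference -1.58 ± 0.17 (SE), adjusted p = 0.00345). Cacnb3 was lower in 3 of 3 libraries, 65.0, 57.9 and 82.4 against 113, 110.3 and 148, and did not pass (log2 difference -0.85 ± 0.24 (SE), adjusted p = 0.0542). The sodium channel beta subunit gene Scn3b rose from 0.681, 1.73 and 0.529 to 11.6, 16.5 and 9.25 (log2 difference 2.78 ± 0.33 (SE), adjusted p = 0.00425).

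The 3 libraries labelled BRCA1_wt limit this comparison. Cacna2d1, Kcnj11, Scn3b and Trpc4 were among the 6 members called under every alternative in which they were fitted. The fit without both library 1 and library 3 labelled BRCA1_wt is not counted here. The filter of a mean of 5 left Cacna2d1, Kcnj11 and Trpc4 out of the fit. The other 11 members lost their call when 1 library was left out. The count of 17 was 6 without BRCA1_wt library 1, 10 without BRCA1_wt library 3, 6, 10 and 8 without BRCA1_ko library 1, 2 and 3, and 24 without BRCA1_wt library 2. Over all 12775 genes tested, the count of 1828 ran from 284 to 8420 when 1 library was left out, so the swing is not particular to channel genes. On data simulated with the spread of this comparison, 1% of 2-fold and 34% of 4-fold changes were recovered. Far fewer genes were changed there than passed here, which made the adjustment stricter, so these shares may be too low for the data. A member that did not pass still cannot be taken as level. Smooth muscle markers were lower with the label BRCA1_ko (summed level 519 to 1016, against 2152 to 3479), with Acta2 at 14.7, 8.14 and 18.3 and 1072, 687 and 1205, and 3 of 15 tested ovarian surface and mesothelial markers were higher and 2 lower. Granulosa and theca markers summed to 93.8 to 107 with the label BRCA1_wt and 221 to 273 with BRCA1_ko, and 1 of 4 tested, Inha (1.82 ± 0.26 (SE), adjusted p = 0.00745), was higher, while Fshr and Cyp19a1 were below 1 in all 6 libraries. Oocyte markers summed to 10.9 to 25.6 and to 1.40 to 2.06, nearly all of the first from Ddx4 (-3.47 ± 0.35 (SE), adjusted p = 0.00272), while Zp3 and Gdf9 were below 1 in all 6. Their part in the channel differences was not tested. In the authors' deposited table all 17 had the same sign, 16 of them with a q-value under 0.05.

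Among related genes in this comparison, 3 of 18 tested other cation channels rose and 1 fell, beside 14.3% of all genes called. The ATP-gated channel P2rx3 stood at 1.22, 3.02 and 0.901 in the libraries labelled BRCA1_wt and 48.1, 32.5 and 25.7 in those labelled BRCA1_ko (log2 difference 3.78 ± 0.37 (SE), adjusted p = 0.00269), and the lysosomal channel Mcoln1 and Piezo1 rose by 2.73 and 1.09. Of 15 pumps and exchangers 3 rose and 3 fell, among them the sodium pump subunit Atp1b2 (1.96 ± 0.44 (SE), adjusted p = 0.0341), which rose, and the regulator Fxyd1 (-2.96), which fell. Of 13 store-operated and endoplasmic reticulum genes 2 rose, Stim2 (1.29 ± 0.34 (SE), adjusted p = 0.048) and Saraf (1.19), and none fell. Of 7 channel partners Dpp6 rose (1.27) and the calmodulin genes Calm2 and Calm3 fell.

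**Figure D4:**
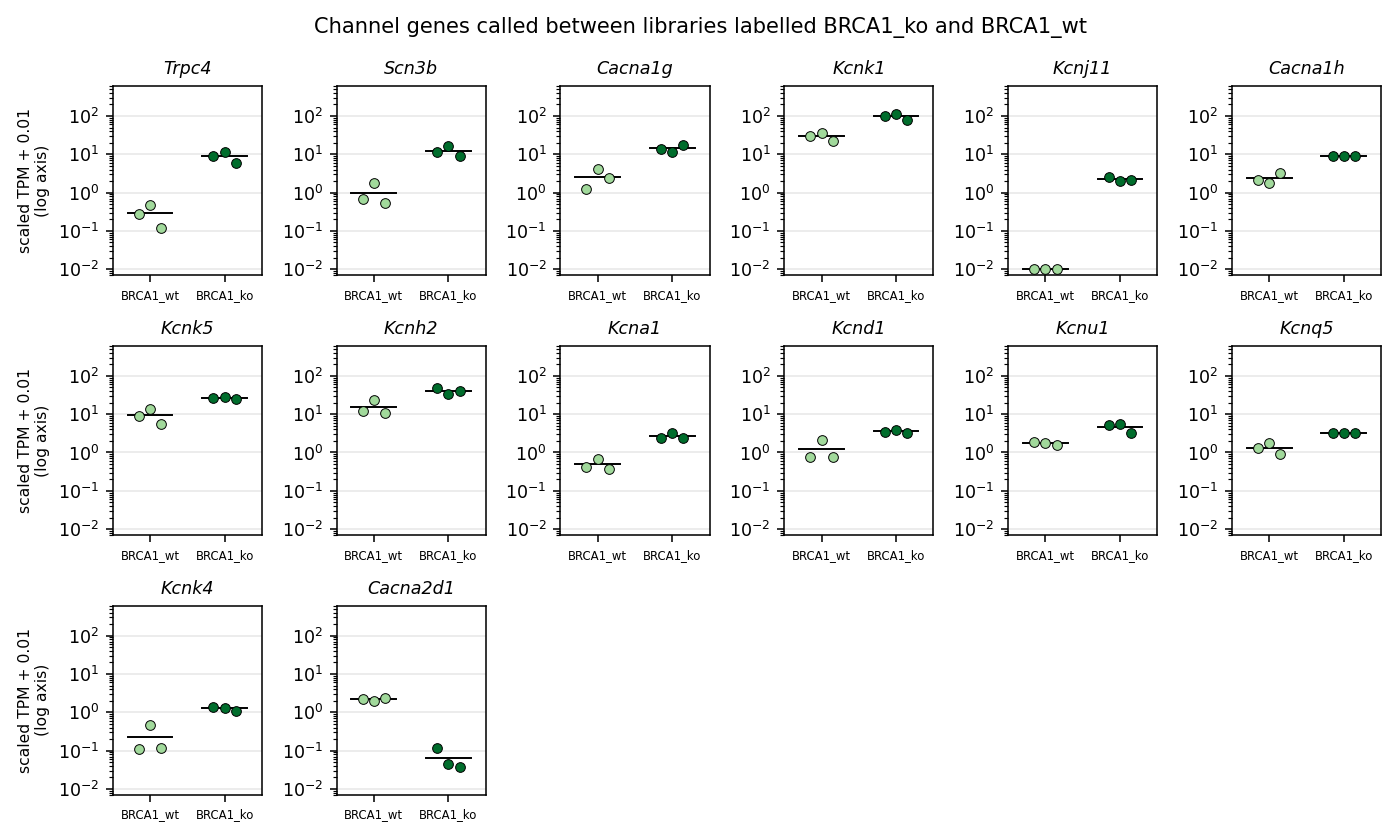
Scaled TPM of 14 of the channel genes called between the libraries labelled BRCA1_ko and BRCA1_wt, on a log axis after adding 0.01; points are single libraries, lines are group means, and genes are ordered from the most positive to the most negative log2 difference. Trpc4 spans 0.112 to 0.475 in the 3 libraries labelled BRCA1_wt and 5.84 to 11.7 in the 3 labelled BRCA1_ko, and Cacna2d1 is the gene drawn that is lower there.

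Set beside each other, the experiments moved some of the same genes. Cacna1g was called in 5 comparisons: higher with TGFB1 in monolayers (1.21), with Snail (1.28) and with the label BRCA1_ko (2.16), and lower in both spheroid comparisons (-2.27 and -3.15). Cacna2d1 was higher in all 4 comparisons between groups of the monolayer and spheroid table and lower with the label BRCA1_ko, and with Snail its difference of 0.26 did not pass. Kcnh2 and Cacna1h were each higher in both spheroid comparisons and with the label BRCA1_ko, and lower with TGFB1 in spheroids. Comparisons within the monolayer and spheroid table share groups, so these values are not independent of each other. Among the 51 members tested anywhere, 40 were called in at least 1 comparison, and 11 in none (among them Cacna1a, Cacnb4, Cacng8, Kcna7, Kcnip2, Kcnip3, Kcnk6, Kcnma1, Kcnn2 and Trpm2). The matching share of all genes was not computed. A single comparison called up to 55.2% of all genes, so this count does not set channel genes apart.

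**Figure D5:**
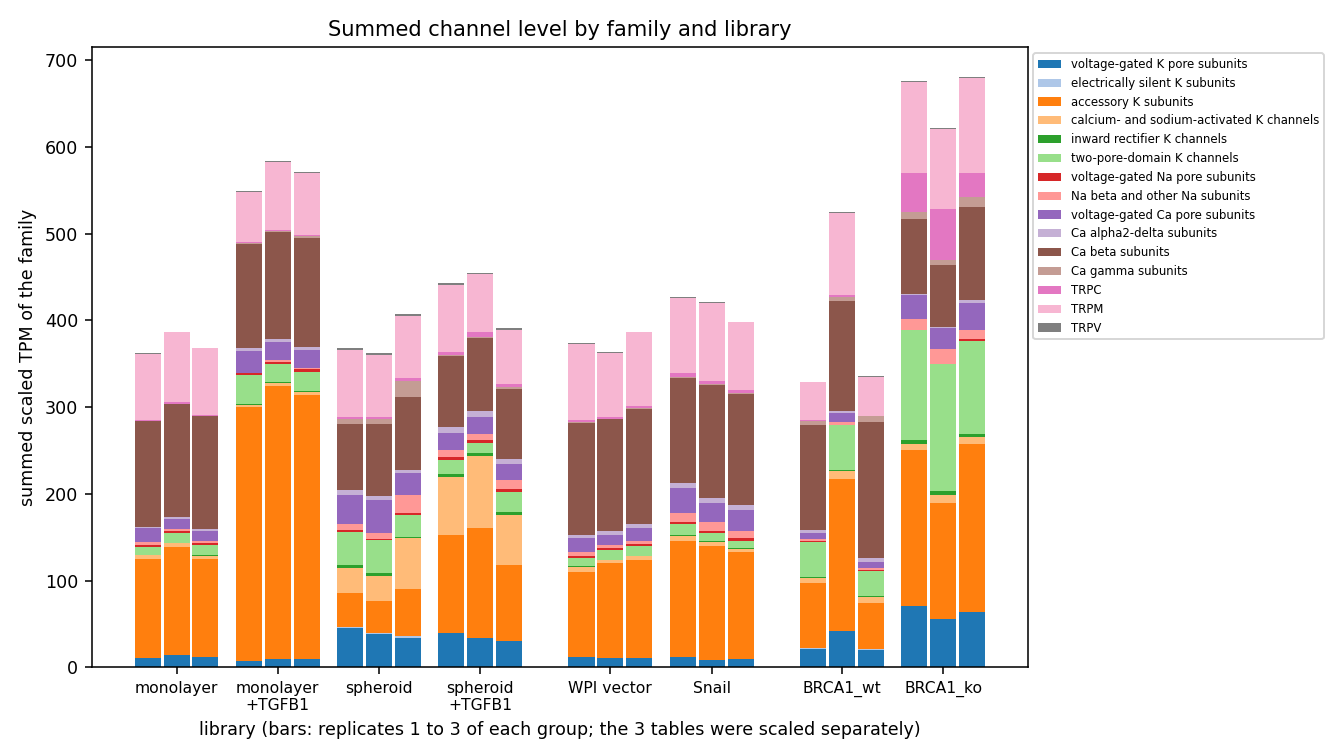
Stacked bars of summed scaled TPM for the 15 channel families in each of the 24 libraries, with the axis from 0; the 3 tables were scaled separately. The summed level of all 153 members was 372 in untreated monolayers, 568 with TGFB1, 379 in untreated spheroids and 430 with TGFB1 (means of 3 libraries), and accessory potassium subunits are the largest block of the TGFB1 monolayers.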

How the data were processed

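Poly(A) RNA-seq of 24 libraries in 3 tables was analysed. Reads were quantified by the authors with kallisto 0.44.0 against GRCm38 and modelled with sleuth 0.30.0, per the submitters' processing notes, whose strand setting is not given in the sources used here. The deposited gene values behave as a length-corrected signal (scaled TPM) and are not counts, so depth in reads is unknown and no interval from counts is given. The authors' deposited comparison tables hold coefficients on the natural log scale with p-values and q-values.

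Values were transformed to log2(value + 1) and genes with at least 1 in at least 3 libraries of a table were fitted with limma 3.58.1 in R 4.3.3 (group means, variance trend, two-sided, Benjamini-Hochberg over all genes fitted, called under 0.05), over 12 libraries for the monolayer and spheroid table and 6 for each other table. The fit was tested on simulated data. Tables were summarised with pandas 2.3.3 and numpy 2.4.6 (Python 3.11.15) and plotted with matplotlib 3.10.9. Symbols listed on a second, identical gene row were used once. Named genes were the called members, the highest member of each family, members with a group mean of at least 10 and up to 3 called genes of each related list; other genes were named after their values were seen. Alternatives were scaling, pseudocount, filter, libraries in the fit, quality weights, variance trend, leaving out each library and a replicate block. A few members and related genes enter the fits and counts but are not reported here by name. Members and lists were chosen with earlier results of these data known.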

Additional observations from a re-analysis of the deposited data

Results flagged for a closer look

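For 8 channel genes described here the TGFB1 difference in spheroids differed from that in monolayers by the interaction test (limma). More positive in spheroids were Kcne4 (5.19), Kcnn3 (4.83), Kcnn4 (1.38), Cacnb1 (0.66) and Cacnb3 (0.35). More negative were Kcnk1 (-3.66), Cacng1 (-2.78) and Kcnab1 (-1.90). All values are differences of log2 differences, and culture form and TGFB1 schedule cannot be told apart in them. For Kcnk1, 3 of 3 TGFB1 monolayers were above the untreated ones, while in spheroids the values were 19.8, 13.8 and 1.44 untreated and 0.553, 1.69 and 4.94 with TGFB1.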

How the results depend on the processing

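No called channel gene changed direction under any alternative that was run, and quality weights were not run on the BRCA1 table because they did not converge. For untreated spheroids against monolayers, the 22 members called became 34 with no filter, 36 with a filter of 0.1 and 12 with a filter of a mean of 5. For TGFB1 in monolayers, 9 became 5 with the mean filter and 17 with quality weights. For TGFB1 in spheroids, 16 became 29 with the 0.1 filter and 10 with the mean filter, and for spheroids against monolayers with TGFB1, 22 became 11 with the mean filter. For the interaction, 9 became 15 with the 0.1 filter, 5 with the mean filter and 15 with quality weights. For Snail, 2 became 0 with no filter, and for BRCA1, 17 became 8 with no filter and 7 with the mean filter. These filters also change how many members are tested. Leaving out each library gave 18 to 26, 5 to 10, 12 to 21, 21 to 24 and 4 to 10 members in the 5 comparisons of the monolayer and spheroid table in the order above (the interaction last), 2 to 2 for Snail and 6 to 24 for BRCA1. Over all genes these ranges were 6401 to 7839, 1234 to 2818, 3295 to 4944, 6063 to 7521 and 1402 to 2741. They were 23 to 75 for Snail and 284 to 8420 for BRCA1. Without libraries 1 and 3 labelled BRCA1_wt, an alternative chosen after seeing the data, 8 members were called, but this leaves 1 library in that group, which is assumed to vary like those labelled BRCA1_ko. With the replicate block the counts were 22, 9, 17, 21 and 6 in the same order, 1 for Snail and 8 for BRCA1, and the deviations of same-numbered libraries did not correlate above 0.1 in every pair, so the numbers were not taken as pairing. Under the block Cacna1g had adjusted p = 0.0469 with Snail. Over all genes, TGFB1 in monolayers went from 2284 calls to 1402 with no filter, 6431 with quality weights and 3585 with only the 6 libraries compared, and TGFB1 in spheroids from 4810 to 2769 with only those 6. The interaction went from 2138 to 4385 with quality weights. Snail went from 210 to 24 with no filter, 112 with the 0.1 filter and 16 with the replicate block. BRCA1 went from 1828 to 904 with equal sums, 454 with no filter, 854 with the mean filter and 433 with the replicate block. Except where a filter sets the number tested, the cause was not tested.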

Other observations

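Chloride and volume-regulated channel genes, which share the control of cell volume with potassium channels, were described by the same fit. Of 16 tested, 8 rose and 1 fell in untreated spheroids, beside 55.2% of all genes called, with the voltage-gated chloride channel Clcn2 at a log2 difference of 1.37 ± 0.13 (SE), adjusted p = 6.93e-06. With TGFB1 4 rose in monolayers, beside 16.9% of all genes, and 6 rose and 1 fell in spheroids, beside 35.6%. Lrrc8c, a subunit of the volume-regulated anion channel, stood at 16.5, 18.8 and 17.8 and 44.3, 30.4 and 24.9 in monolayers without and with TGFB1, and at 34.7, 31.7 and 20.0 and 80.1, 108 and 69.7 in spheroids, and it rose by 0.83 and 1.56 on the log2 scale. With Snail 1 of 14, Lrrc8d, fell (-0.62 ± 0.07 (SE), adjusted p = 0.00981), beside 1.72% of all genes. In the libraries labelled BRCA1_ko 5 of 16 rose and none fell, beside 14.3% of all genes. The calcium-activated chloride channel Ano1 stood at 0.317, 0.525 and 0.111 in the libraries labelled BRCA1_wt and 10.9, 12.2 and 6.19 in those labelled BRCA1_ko (log2 difference 2.99 ± 0.30 (SE), adjusted p = 0.00269).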
